A study of Homo sapiens with 6 samples.

Results

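Collagens, matrix glycoproteins and the enzymes that modify or crosslink them were compared between SiHa cells that received either a hsa_circ_0005358 plasmid, which encodes a circular RNA, or a vector plasmid. The set holds 47 named genes of the 35544 loci in the deposited table, each matched to the row that carries its symbol, and no symbol stood on more than 1 row. SiHa is an established human cervical squamous carcinoma line. Both groups were transfected with a plasmid, collected at 72 h and sequenced as polyA RNA, with 3 libraries a group, to look for mRNAs downstream of the circular RNA. Libraries are called vector replicates 1 to 3 and circ_0005358 replicates 1 to 3. The labels number the libraries without saying that they are separate cultures, so the spread behind each p-value is that between these libraries and may be technical. The label texts spell the digits of the circular RNA in more than one way, and its own level was not analysed here. The comparison rests on 1 cell line, and any matrix made by other cells of a tumour is outside it.

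Collagens are built from chains that wind into triple helices. In the endoplasmic reticulum prolyl and lysyl hydroxylases modify the chains, and after secretion lysyl oxidases and transglutaminases crosslink the assembled fibres and networks. Epithelial cells rest on a basement membrane of laminins, type IV collagen, nidogens, perlecan and agrin, which integrins bind, while interstitial matrix with fibrillar collagens, fibulins and small proteoglycans is mostly made by fibroblasts.

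Expression was read as FPKM, fragments per transcript length and library size, a level that can be compared between genes. A gene was tested where it reached 1 FPKM in 3 or more of the 6 libraries, which 28 of the 47 matrix genes and 10295 of all loci did. A gene is said to rise or fall where limma on log2(FPKM + 1), run over all those loci, gave a Benjamini-Hochberg adjusted p under 0.05, and log2 fold changes are circ_0005358 minus vector on that scale, where low genes show less than their true change. Of the tested matrix genes, 10 rose, 4 fell and 14 did not pass, so 14 of 28 were called against 11.4% of all tested loci, 6.41% higher and 4.96% lower. The groups did not overlap in 18 of the 28, against 35.8% of all tested loci. The median log2 fold change of the tested matrix genes was 0.25, beside 0.02 for all tested loci. The set was assembled with some of these changes already known, so its counts are a description. CCDC80 reached 1 FPKM only with circ_0005358 and CRTAC1 only with vector, so both passed the filter through the group in which they were high. The exact two-sided permutation test cannot go below p = 0.1 with 3 against 3 libraries, and it gave that value for each of the 18.

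The implied depth was 93.6% to 100% of the deepest library in 5 libraries and 71.1% in circ_0005358 replicate 2. Vector replicate 3 listed 27803 loci above 0 and the other libraries 23227 to 23834. Of 9 genes listed as markers of the SiHa line (keratins, EPCAM, CDKN2A and TP63), 8 reached 1 FPKM, TP63 being the exception. Of those 8, 6 fell, where 4.96% of all tested loci fell. The list is not one of squamous identity alone. All 9 summed to 1305 to 1384 FPKM with vector and 637 to 726 FPKM with circ_0005358, and KRT17 was the highest of them with vector. The KRT5 row also carries KRT6A, and the KRT19 row also carries KRT9, KRT14 and KRT16. The share of each keratin cannot be read from these rows. The KRT19 row, which did not pass, stood at 6.40, 9.73 and 0.00991 FPKM in circ_0005358 replicates 1 to 3. KRT17, a keratin of stratified and stressed epithelia, stood at 625 ± 41.1 FPKM (SD, n = 3) with vector and 205 ± 11.7 FPKM (SD, n = 3) with circ_0005358.

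**Figure D1:**
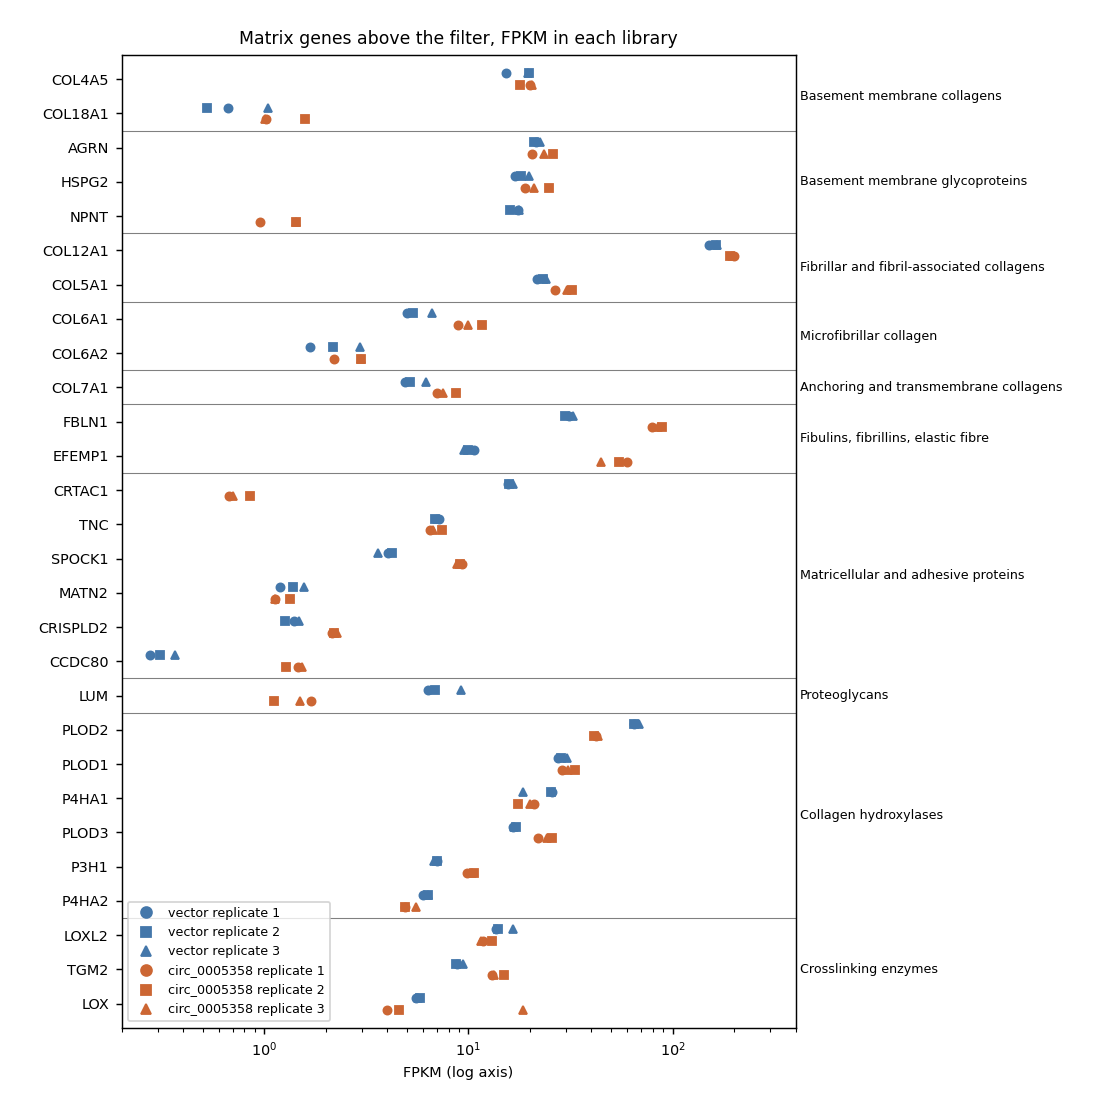
FPKM of the 28 matrix genes above the filter (log axis), by role, with 1 marker for each of the 3 vector and 3 circ_0005358 libraries. COL12A1 has the highest level in both groups, CRTAC1 and NPNT drop from about the middle of the range to its lower end, and the lone LOX value at 18.5 FPKM is circ_0005358 replicate 3.

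The deepest losses were in 2 secreted proteins that carry calcium-binding or EGF-like modules. CRTAC1, cartilage acidic protein, stood at 15.5, 15.8 and 16.5 FPKM in the vector libraries and 0.67, 0.853 and 0.701 FPKM in the circ_0005358 libraries. Every vector library was far above every circ_0005358 library. The level fell to 0.0464 of the vector mean (log2 fold change -3.29, standard error 0.067, limma adjusted p = 5.54e-05), the fourth largest negative log2 fold change of the 10295 loci. CRTAC1 passed the filter only through the vector libraries, so its p and rank describe a gene admitted through its high group.

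NPNT encodes nephronectin, a basement membrane glycoprotein that binds integrin alpha8 beta1. Its libraries stood at 17.5, 16.04 and 17.7 FPKM in vector replicates 1 to 3, against 0.958, 1.43 and 1.43 FPKM in circ_0005358 replicates 1 to 3. The groups were separated by more than 10 FPKM. NPNT fell to 0.0745 of the vector mean (log2 fold change -3.00, standard error 0.108, limma adjusted p = 0.000238). ITGA8, the alpha chain of its receptor, stayed below 1 FPKM in every library, and ITGB1, the beta chain, fell from 54.6 to 41.5 FPKM (limma adjusted p = 0.0359) on a row that also carries AL365203.3.

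The promoters of CRTAC1 and NPNT are shown because these genes had the largest losses of the set, from 250 bases before to 50 after the RefSeq start on GRCh38.p14. Capitals mark a GC box, GGGCGG read on either strand, where copies on the opposite strand appear as the reverse complement. They also mark a TATA box, TATAAA, in the same way. CRTAC1 is at chr10:98030572-98030871 on the minus strand and NPNT at chr4:105895221-105895520 on the plus strand.
CRTAC1: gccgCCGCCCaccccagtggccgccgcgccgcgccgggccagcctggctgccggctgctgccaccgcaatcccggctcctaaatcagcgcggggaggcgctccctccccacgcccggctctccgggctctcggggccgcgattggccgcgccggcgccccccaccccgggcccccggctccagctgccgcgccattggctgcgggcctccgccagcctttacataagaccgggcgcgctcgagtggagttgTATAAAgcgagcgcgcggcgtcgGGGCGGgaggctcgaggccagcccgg
NPNT: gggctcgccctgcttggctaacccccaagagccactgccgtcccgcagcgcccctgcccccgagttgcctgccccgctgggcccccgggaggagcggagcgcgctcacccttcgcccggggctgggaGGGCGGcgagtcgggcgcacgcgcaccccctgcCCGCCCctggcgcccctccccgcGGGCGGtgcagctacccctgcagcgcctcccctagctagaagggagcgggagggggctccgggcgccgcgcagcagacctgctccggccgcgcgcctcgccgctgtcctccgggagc
Both are rich in G and C, at 77.7% and 79.3%, with 43 and 36 CpG steps. CRTAC1 has 2 GC boxes and a TATA box that begins at base 2 after the start, and NPNT has 3 GC boxes and no TATA box in this window.

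The remaining 2 genes that fell were LUM and PLOD2, the latter described with the hydroxylases. LUM encodes lumican, a small leucine-rich proteoglycan that binds collagen fibrils. Its values were 6.35, 6.85 and 9.21 FPKM for vector, against 1.69, 1.11 and 1.49 FPKM for circ_0005358, with no overlap. LUM fell to 0.192 of its vector mean (log2 fold change -1.79, standard error 0.16, limma adjusted p = 0.00285). BGN (biglycan, of the same small leucine-rich class) and VCAN (versican, a large proteoglycan) were below 0.17 FPKM in every library. Lumican is also a fibroblast marker: of 12 fibroblast markers 3 reached 1 FPKM, namely LUM, ACTA2 and a PDGFRA row joined with FIP1L1. With LUM the list summed to 13.5 to 17.1 FPKM with vector and 10.4 to 10.8 FPKM with circ_0005358. The 11 markers other than LUM summed to 7.11 to 7.92 FPKM with vector and 8.73 to 9.55 FPKM with circ_0005358. Without LUM the sum was thus higher, not lower, with circ_0005358, but single markers went both ways. ACTA2, smooth muscle actin, rose from 3.91 to 5.54 FPKM (limma adjusted p = 0.0174), and COL1A2 and POSTN stayed below 0.06 FPKM. Below the filter, COL3A1, DCN and PDGFRB were higher without overlap. COL1A1 (0.531 to 0.251 FPKM) and FAP (0.249 to 0.0912 FPKM), also below it, were lower without overlap. The cells were of 1 established carcinoma line, so these values do not count fibroblasts. In bulk RNA, fewer SiHa cells with a transcript and less of it per cell cannot be told apart.

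Of the fibulins in the set, EFEMP1 and FBLN1 rose, and EFEMP2 was below the filter. EFEMP1 encodes fibulin-3, an extracellular glycoprotein of EGF-like modules. It stood at 10.6, 9.997 and 9.49 FPKM for vector, against 60.1, 54.9 and 44.8 FPKM for circ_0005358. The lowest circ_0005358 library was above 4 times the highest vector library. EFEMP1 rose 5.31-fold (log2 fold change 2.29, standard error 0.118, limma adjusted p = 0.000607), the 15th largest positive log2 fold change of all tested loci.

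FBLN1 encodes fibulin-1, found in basement membranes and elastic fibres. Its level was 31.0, 29.8 and 32.6 FPKM with vector and 79.5, 88.9 and 84.8 FPKM with circ_0005358. The values within a group lay close together and the groups were far apart. FBLN1 rose 2.71-fold (log2 fold change 1.41, standard error 0.064, limma adjusted p = 0.000443). The ratio of FBLN1 to EFEMP1 FPKM went from 3.11 ± 0.279 to 1.61 ± 0.285 (SD, n = 3 each). Together both genes made up 7.76% ± 0.342 of the summed FPKM of the 47 genes with vector and 21.5% ± 1.19 with circ_0005358 (SD, n = 3 each).

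The FBLN1 promoter, at chr22:45502633-45502932 on the plus strand of GRCh38.p14, is shown as that of the more abundant of the fibulins that rose.
FBLN1: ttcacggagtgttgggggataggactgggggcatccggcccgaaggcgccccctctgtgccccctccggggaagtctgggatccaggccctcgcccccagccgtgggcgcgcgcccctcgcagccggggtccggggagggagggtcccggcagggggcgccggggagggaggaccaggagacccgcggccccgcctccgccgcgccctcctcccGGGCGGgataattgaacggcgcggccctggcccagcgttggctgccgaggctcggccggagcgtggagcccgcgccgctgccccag
It has 1 GC box, 36 bases before the start, and 78% G and C. The other 6 elastic fibre and microfibril genes were below the filter: EFEMP2 (fibulin-4), the fibrillins FBN1 and FBN2, EMILIN1, MFAP2 and MFAP5, with 0.354 FPKM as their highest value, for EMILIN1 in vector replicate 3.

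**Figure D2:**
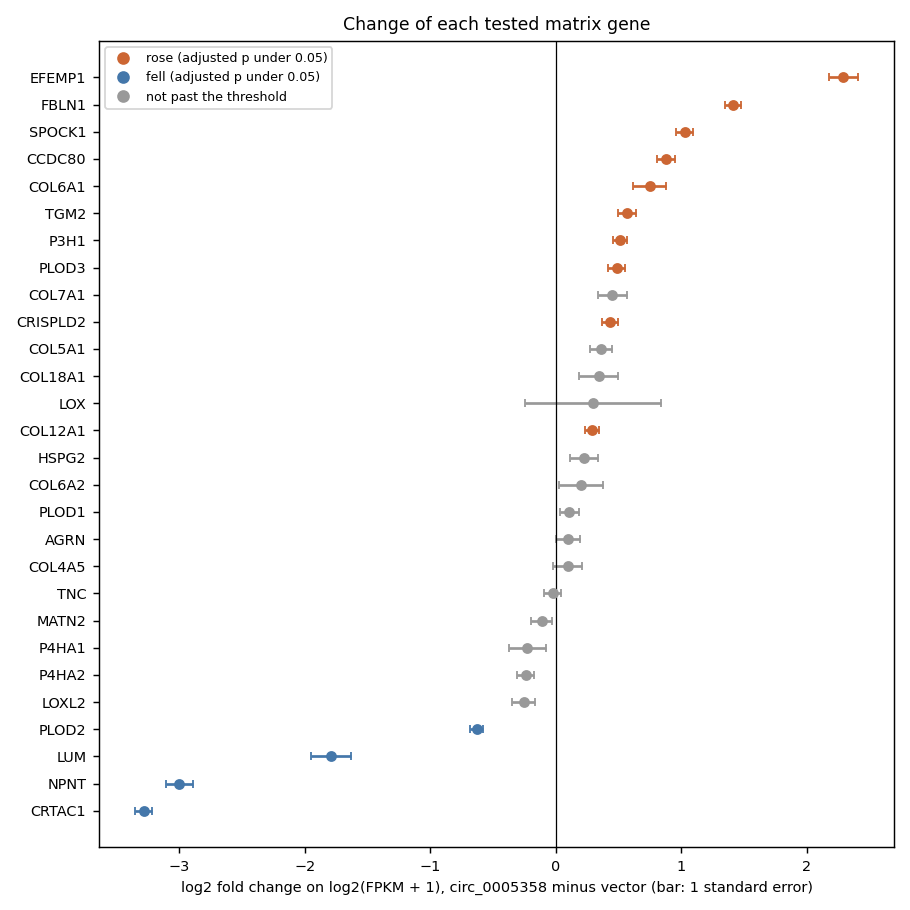
Log2 fold change (circ_0005358 minus vector) on log2(FPKM + 1) of the 28 tested matrix genes, with bars of 1 standard error from limma and colour by call. The 4 genes that fell lie between -3.29 and -0.63 and the 10 that rose between 0.29 and 2.29.

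Among matricellular and adhesive proteins, 3 of 6 tested members rose and 1, CRTAC1, fell (66.7% called, against 11.4% of all tested loci). SPOCK1, testican-1, a secreted proteoglycan of the SPARC family, stood at 4.02, 4.22 and 3.59 FPKM in the vector libraries and 9.31, 9.1 and 8.74 FPKM in the circ_0005358 libraries. All 3 circ_0005358 libraries were above all vector libraries (2.29-fold, log2 fold change 1.03, standard error 0.07, limma adjusted p = 0.00129). CCDC80, a secreted protein that binds matrix, was low throughout, at 0.274, 0.309 and 0.367 FPKM in vector replicates 1 to 3, against 1.46, 1.27 and 1.53 FPKM in circ_0005358 replicates 1 to 3. It rose (log2 fold change 0.88, standard error 0.072, limma adjusted p = 0.0022), with a 4.49-fold ratio of means that rests on values near the filter. CCDC80 passed the filter only through the circ_0005358 libraries.

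CRISPLD2, a secreted protein with CAP and LCCL domains, stood at 1.4, 1.26 and 1.48 FPKM for vector, against 2.15, 2.19 and 2.27 FPKM for circ_0005358. It rose 1.597-fold (log2 fold change 0.43, limma adjusted p = 0.0147), with no overlap of the groups. The call was lost without vector replicate 1 or 2 or circ_0005358 replicate 3 (limma adjusted p = 0.0569, 0.0598 and 0.0599).

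TNC, tenascin-C, and MATN2, matrilin-2, did not pass and their groups overlapped. TNC lay at 6.82 to 7.21 FPKM for vector and 6.51 to 7.42 FPKM for circ_0005358 (limma adjusted p = 0.843). MATN2 lay at 1.199 to 1.56 FPKM for vector and 1.13 to 1.34 FPKM for circ_0005358 (limma adjusted p = 0.457). ECM1, extracellular matrix protein 1, was below the filter in all libraries, at 0.626, 0.86 and 0.963 FPKM in the vector libraries and 0.369, 0.519 and 0.511 FPKM in the circ_0005358 libraries, without overlap and without a test in the model. SPARC, osteonectin, a collagen-binding glycoprotein abundant in fibroblasts, stayed at or below 0.0516 FPKM.

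Of the 14 collagen chains, 7 were tested, 2 rose and 0 fell (28.6% called, against 11.4% of all tested loci). At an unadjusted limma p under 0.05, 4 of the 7 were higher with circ_0005358 and 0 lower, against 15.7% and 11.6% of all tested loci. COL12A1, a fibril-associated collagen, was the most abundant gene of the set, at 149.96, 163.8 and 165.4 FPKM in vector replicates 1 to 3, against 200.2, 190.1 and 195 FPKM in circ_0005358 replicates 1 to 3. The groups did not overlap, although the ratio of means was only 1.22 (log2 fold change 0.29, standard error 0.057, limma adjusted p = 0.0347). That call was lost without any 1 of the 6 libraries: without vector replicates 1 to 3 the limma adjusted p was 0.0784, 0.0919 and 0.0724, and without circ_0005358 replicates 1 to 3 it was 0.0925, 0.0693 and 0.111. It was also lost after rescaling each library to the same sum (limma adjusted p = 0.0523) and after quantile normalization (0.121). COL12A1 made up 73.8% ± 1.17 of the summed FPKM of the 14 chains with vector and 73.0% ± 1.81 with circ_0005358 (SD, n = 3 each).

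COL6A1, a chain of the microfibrillar type VI collagen, stood at 4.99, 5.38 and 6.65 FPKM for vector, against 8.93, 11.6 and 9.99 FPKM for circ_0005358. It rose 1.80-fold with no overlap (log2 fold change 0.75, standard error 0.133, limma adjusted p = 0.0253). Without vector replicates 1 or 2 the limma adjusted p was 0.0847 and 0.0914, and without circ_0005358 replicates 2 or 3 it was 0.0643 and 0.0838.

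COL6A2 encodes the partner chain from the neighbouring gene on chromosome 21. It was at 1.68, 2.18 and 2.95 FPKM in the vector libraries and 2.2, 2.99 and 2.99 FPKM in the circ_0005358 libraries. Its groups overlapped and it did not pass (limma adjusted p = 0.521). The ratio of COL6A1 to COL6A2 FPKM was 2.56 ± 0.371 with vector and 3.76 ± 0.37 with circ_0005358 (SD, n = 3 each). COL6A3, the third common chain of that collagen, reached at most 0.187 FPKM, in vector replicate 3.

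The 2 remaining tested chains without overlap just missed the threshold, while COL17A1, below the filter and described further on, was lower without overlap. COL5A1, a regulator of fibril diameter, stood at 21.7, 23.2 and 23.9 FPKM in vector replicates 1 to 3, against 26.6, 32.1 and 30.5 FPKM in circ_0005358 replicates 1 to 3 (log2 fold change 0.36, limma adjusted p = 0.056). COL7A1, which forms the anchoring fibrils under squamous epithelia, stood at 4.87, 5.16 and 6.19 FPKM for vector, against 7.01, 8.71 and 7.53 FPKM for circ_0005358 on a row that also carries MIR711 (log2 fold change 0.45, limma adjusted p = 0.0639). All circ_0005358 libraries were above all vector libraries for each. With library weights limma called both (adjusted p = 0.0427 and 0.0494), and it called COL5A1 without circ_0005358 replicate 1 (adjusted p = 0.0356). COL5A1 stayed uncalled in 14 of 16 alternatives (highest limma adjusted p = 0.19) and COL7A1 in 15 of 16 (highest 0.181). COL5A2, the partner of COL5A1 in type V collagen, stayed between 0.312 and 0.401 FPKM.

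The type IV collagen of this line was represented by COL4A5, and COL4A1 and COL4A2 were nearly silent. COL4A5 lay at 15.3 to 19.8 FPKM for vector and 17.9 to 20.4 FPKM for circ_0005358 (limma adjusted p = 0.665). COL4A1 and COL4A2, the chains of the common type IV network, reached 0.216 and 0.219 FPKM in vector replicate 3 and at most 0.0384 FPKM in the other 5 libraries. COL4A6, which pairs with COL4A5 in the network of some epithelia, lay between 0.494 and 0.627 FPKM.

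COL4A1 and COL4A2 are transcribed away from each other from a shared promoter on chromosome 13. The COL4A2 window, chr13:110307034-110307333 on the plus strand of GRCh38.p14, is shown because both genes were at the low end together, and it shares 226 bases with the COL4A1 window, chr13:110307108-110307407 on the minus strand.
COL4A2: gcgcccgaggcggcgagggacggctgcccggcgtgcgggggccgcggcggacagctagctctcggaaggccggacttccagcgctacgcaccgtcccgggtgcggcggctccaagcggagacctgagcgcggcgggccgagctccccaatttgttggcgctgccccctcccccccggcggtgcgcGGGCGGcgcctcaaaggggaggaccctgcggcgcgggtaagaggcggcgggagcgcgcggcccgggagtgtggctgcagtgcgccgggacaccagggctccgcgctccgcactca
It is 77.7% G and C with 45 CpG steps and 1 GC box in capitals.

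Motifs of 5 kinds were looked for on both strands in the 36 member promoters found in the RefSeq table and in all 34943 windows of the same length. The GC box was in 27 of the 36 (75%) and in 44.9% of all windows, and its copies can overlap each other. The TATA box was in 7 (19.4%, and 11.6% of all), the AP-1 motif TGACTCA or TGAGTCA in 2 (5.56%, and 4.96%), the E-box CACCTG or CAGGTG in 2 (5.56%, and 20.6%) and the TEAD motif GGAATG or CATTCC in 4 (11.1%, and 14.04%). Median G and C was 69.7% in the member windows and 58.7% in all. These are matches of letters in a window and no more.

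Other chains of the basement membrane zone were low. COL18A1, whose product is cleaved to endostatin, lay at 0.523 to 1.04 FPKM for vector and 1.01 to 1.59 FPKM for circ_0005358 (limma adjusted p = 0.235). COL17A1, the transmembrane collagen of hemidesmosomes, was below the filter, at 0.429, 0.501 and 0.677 FPKM in the vector libraries and 0.051, 0.056 and 0.104 FPKM in the circ_0005358 libraries on a row that also carries MIR936. The lowest vector library was above 4 times the highest circ_0005358 library, in values too low for the model. COL13A1, COL16A1 and COL27A1 stayed at or below 0.385 FPKM.

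The large basement membrane glycoproteins did not pass. AGRN (agrin, on a row that also carries AL645608.6) lay at 21.02 to 22.5 FPKM for vector and 20.4 to 25.96 FPKM for circ_0005358 (limma adjusted p = 0.591). HSPG2, perlecan, lay at 16.99 to 19.7 FPKM for vector and 18.9 to 24.7 FPKM for circ_0005358 (limma adjusted p = 0.275). In both genes the groups overlapped and the highest value was circ_0005358 replicate 2, the shallowest library. The nidogens NID1 and NID2 were near 0, with 0.277 and 0.259 FPKM as their highest values, both in vector replicate 3.

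Lysyl hydroxylases split. PLOD2, which hydroxylates lysines of the collagen telopeptides, stood at 64.7, 64.5 and 68.8 FPKM in vector replicates 1 to 3, against 42.2, 41.1 and 43.3 FPKM in circ_0005358 replicates 1 to 3. It fell to 0.64 of the vector mean (log2 fold change -0.63, standard error 0.051, limma adjusted p = 0.0021), with no overlap. PLOD3, a lysyl hydroxylase that also adds sugars to hydroxylysine, stood at 16.5, 17.2 and 16.6 FPKM for vector, against 21.96, 25.6 and 24.2 FPKM for circ_0005358. It rose 1.43-fold with no overlap (log2 fold change 0.48, standard error 0.069, limma adjusted p = 0.0129). The PLOD3 call was lost without vector replicates 1, 2 or 3 (limma adjusted p = 0.0575, 0.0522 and 0.052) and without circ_0005358 replicate 3 (0.0563). PLOD1, which acts on the helical region, lay at 27.4 to 30.2 FPKM for vector and 28.8 to 33.3 FPKM for circ_0005358 (limma adjusted p = 0.421).

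The ratio of PLOD2 to PLOD3 FPKM was 3.92, 3.76 and 4.14 with vector and 1.92, 1.61 and 1.79 with circ_0005358. PLOD2 made up 59.2% ± 0.547 of the summed FPKM of the 3 genes with vector and 43.5% ± 2.21 with circ_0005358 (SD, n = 3 each). Their promoters are shown as those of paralogs that moved in opposite directions, on the minus strand of GRCh38.p14 at chr3:146161135-146161434 for PLOD2 and chr7:101217532-101217831 for PLOD3.
PLOD2: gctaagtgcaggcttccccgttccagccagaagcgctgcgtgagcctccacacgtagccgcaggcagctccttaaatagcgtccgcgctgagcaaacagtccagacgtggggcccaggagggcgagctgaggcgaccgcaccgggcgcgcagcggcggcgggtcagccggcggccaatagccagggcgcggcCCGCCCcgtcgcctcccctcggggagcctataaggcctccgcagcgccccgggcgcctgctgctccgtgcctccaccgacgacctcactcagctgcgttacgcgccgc
PLOD3: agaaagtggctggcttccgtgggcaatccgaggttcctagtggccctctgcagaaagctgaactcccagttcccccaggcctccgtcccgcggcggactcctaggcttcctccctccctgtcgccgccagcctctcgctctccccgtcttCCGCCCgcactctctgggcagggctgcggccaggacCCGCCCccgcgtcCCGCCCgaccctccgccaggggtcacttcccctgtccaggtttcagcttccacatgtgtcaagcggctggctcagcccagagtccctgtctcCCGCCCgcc
PLOD2 has 1 GC box in this window and PLOD3 has 4, and neither has a TATA box by these letters.

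Of the 3 prolyl hydroxylases 1 rose. P3H1, the prolyl 3-hydroxylase, stood at 7.03, 7.02 and 6.76 FPKM in the vector libraries and 9.84, 10.7 and 10.5 FPKM in the circ_0005358 libraries. It rose 1.49-fold, with no overlap (log2 fold change 0.51, standard error 0.056, limma adjusted p = 0.00547). The call was lost without both vector replicate 3 and circ_0005358 replicate 2 (limma adjusted p = 0.0789). P4HA2, a catalytic subunit of prolyl 4-hydroxylase, lay at 6.01 to 6.32 FPKM for vector and 4.89 to 5.55 FPKM for circ_0005358, without overlap and without passing (log2 fold change -0.24, limma adjusted p = 0.086). P4HA1, its paralog, lay at 18.5 to 25.8 FPKM for vector and 17.6 to 20.9 FPKM for circ_0005358 with overlap (limma adjusted p = 0.386).

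**Figure D3:**
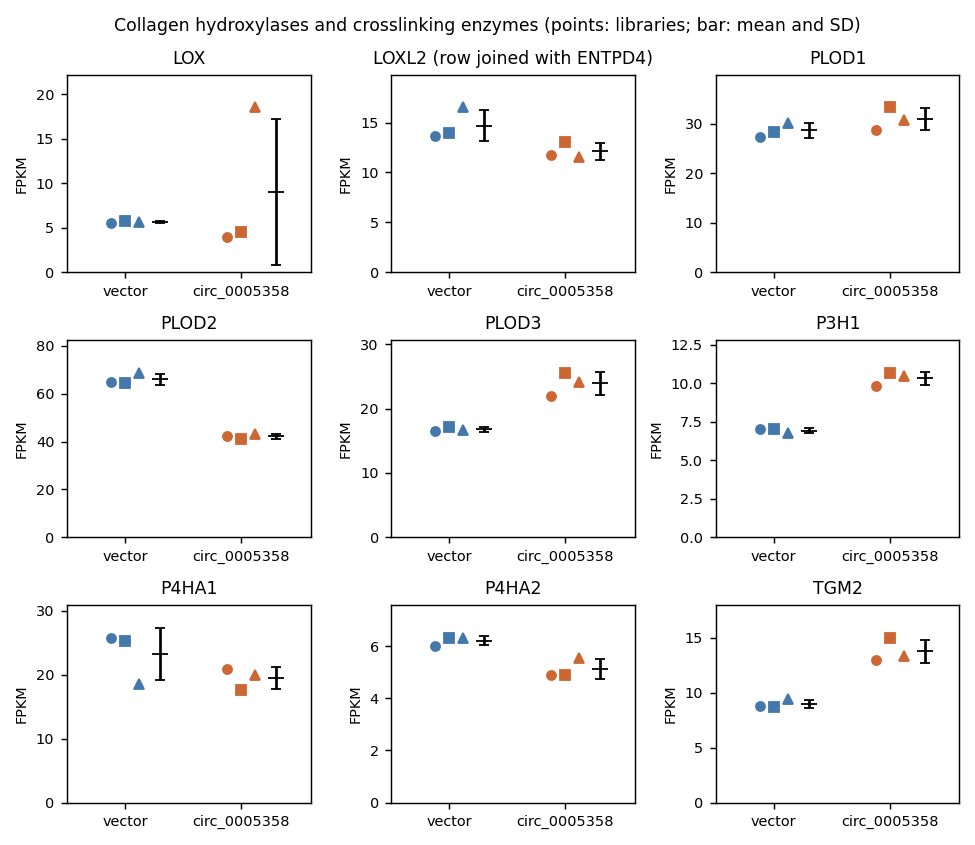
FPKM (linear axis from 0) of 6 collagen hydroxylases and 3 crosslinking enzymes, with 1 point a library and the mean and SD beside each group. PLOD2 is lower and PLOD3, P3H1 and TGM2 are higher in all 3 circ_0005358 libraries, and the SD of LOX with circ_0005358 comes from 1 library at 18.5 FPKM.

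Among crosslinking enzymes 1 of 3 rose (33.3% called, against 11.4% of all tested loci). TGM2, the tissue transglutaminase, stood at 8.8, 8.72 and 9.41 FPKM in vector replicates 1 to 3, against 13.02, 15.01 and 13.3 FPKM in circ_0005358 replicates 1 to 3. It rose 1.54-fold, with no overlap (log2 fold change 0.57, standard error 0.073, limma adjusted p = 0.00927). Its call was lost without both vector replicate 3 and circ_0005358 replicate 2 (limma adjusted p = 0.0567).

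LOX, lysyl oxidase, depended on 1 library. It stood at 5.52, 5.8 and 5.64 FPKM for vector, against 4.001, 4.55 and 18.5 FPKM for circ_0005358. Its log2 fold change was 0.29 with all libraries (limma adjusted p = 0.774) and -0.34 without circ_0005358 replicate 3 (limma adjusted p = 0.096). The row of LOXL2, a lysyl oxidase paralog, also carries ENTPD4, and the share of each gene cannot be read from it. That row lay at 13.6 to 16.5 FPKM for vector and 11.6 to 13.03 FPKM for circ_0005358, without overlap and without passing (limma adjusted p = 0.15).

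**Figure D4:**
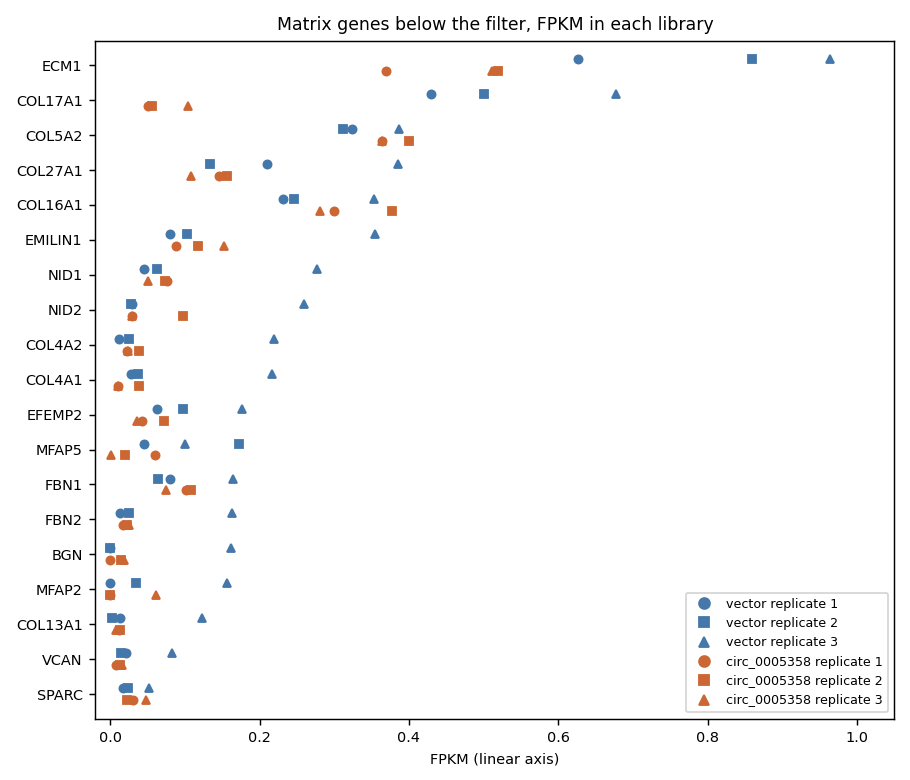
FPKM (linear axis) of the 19 matrix genes below the filter, with 1 marker a library. Vector replicate 3 is the highest library for 16 of the 19, and COL17A1 and ECM1 are the only 2 genes here that reach 0.5 FPKM.

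The 19 matrix genes below the filter were highest in vector replicate 3 in 16 cases, and in 10 of these 19 that library was at least 2-fold above the next. Their median level there was 0.216 FPKM, against 0.043 to 0.0626 FPKM in the other 5 libraries, and the median of all loci below the filter was 0.0613 FPKM there against 0.00438 to 0.00693 FPKM elsewhere. For COL4A1, the vector mean of 0.0937 FPKM included 0.216 FPKM in that library, and the circ_0005358 mean was 0.0195 FPKM. Of the 28 tested genes, 7 were highest in vector replicate 3.

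Other genes of the same pathway were read from lists that hold no member. All 27 other collagen chains, among them COL1A1, COL1A2 and COL3A1, were below the filter. The highest was COL3A1, a fibrillar chain, at 0.0862, 0.0357 and 0.206 FPKM in the vector libraries and 0.784, 0.824 and 0.857 FPKM in the circ_0005358 libraries. Of 14 tested genes among 25 for collagen biosynthesis and secretion, 1 rose and 1 fell, or 14.3% called against 11.4% of all tested loci. PPIB, the isomerase that works with P3H1, rose from 66.4 ± 1.28 to 93.8 ± 6.84 FPKM (SD, n = 3 each, limma adjusted p = 0.0109). CRTAP, of the same list, lay at 15.4 to 34.7 FPKM with vector and 20.0 to 42.8 FPKM with circ_0005358, with overlap (limma adjusted p = 0.595). PCOLCE2, an enhancer of procollagen processing, fell from 1.98 ± 0.119 to 0.359 ± 0.0514 FPKM (limma adjusted p = 0.000871), and it passed the filter only through the vector libraries.

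Laminin chains split: of 9 tested, 3 rose and 3 fell, or 66.7% called against 11.4% of all tested loci. LAMB3 and LAMA3, chains of epithelial laminins, fell to 7.36 FPKM from 38.6 (on a row that also carries MIR4260) and to 1.09 FPKM from 3.01 (limma adjusted p = 0.000203 and 0.0014). LAMB1 rose from 20.1 to 32.6 FPKM (limma adjusted p = 0.00131).

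Of 19 other matrix glycoproteins tested, 4 rose and 3 fell, or 36.8% called against 11.4% of all tested loci. THBS1, thrombospondin-1, rose from 14.95 to 49.4 FPKM (limma adjusted p = 0.000151), and SVEP1, a large adhesive protein, rose from 7.26 to 19.6 FPKM (limma adjusted p = 0.000771). TGFBI, a secreted protein that binds collagens and integrins, fell from 12.9 to 5.11 FPKM (limma adjusted p = 0.000558), and LTBP1, a latent TGF-beta binding protein, from 1.91 to 0.71 FPKM (limma adjusted p = 0.00533). LTBP1 passed the filter only through the vector libraries. Of 16 matrix receptors tested, 3 rose and 4 fell, or 43.75% called against the same 11.4%. SDC4, a syndecan, fell from 119.6 to 73.4 FPKM, ITGB4 from 2.92 to 1.11 FPKM and ITGA6 from 25.6 to 19.4 FPKM, the last 2 being the chains of the hemidesmosome integrin (limma adjusted p = 0.0013, 0.0087 and 0.012). MRC2, an endocytic collagen receptor, rose from 2.90 to 7.23 FPKM (limma adjusted p = 0.00412).

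Summed over the 47 genes, the level was 510.2, 531.5 and 551.6 FPKM with vector and 627.9, 651.9 and 645.1 FPKM with circ_0005358. The 14 collagen chains summed to 217 ± 14.4 FPKM and 267 ± 1.13 FPKM, and the 8 elastic fibre and microfibril genes to 41.8 ± 1.43 FPKM and 138 ± 7.24 FPKM (SD, n = 3 each). The rise of the elastic fibre and microfibril sum was set by FBLN1 and EFEMP1. The other 6 genes of that class stayed at or below 0.354 FPKM. The 6 collagen hydroxylases summed to 148 ± 0.786 FPKM with vector and 132 ± 2.94 FPKM with circ_0005358, a direction set by PLOD2. The sums of all 47 genes did not overlap between groups. Neither did the sums of all loci, at 138864 to 141833 FPKM with vector and 141895 to 145278 FPKM with circ_0005358. EFEMP1 and FBLN1 held 7.76% of the 47-gene sum with vector and 21.5% with circ_0005358. They carried most of the difference between the groups in that sum.

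**Figure D5:**
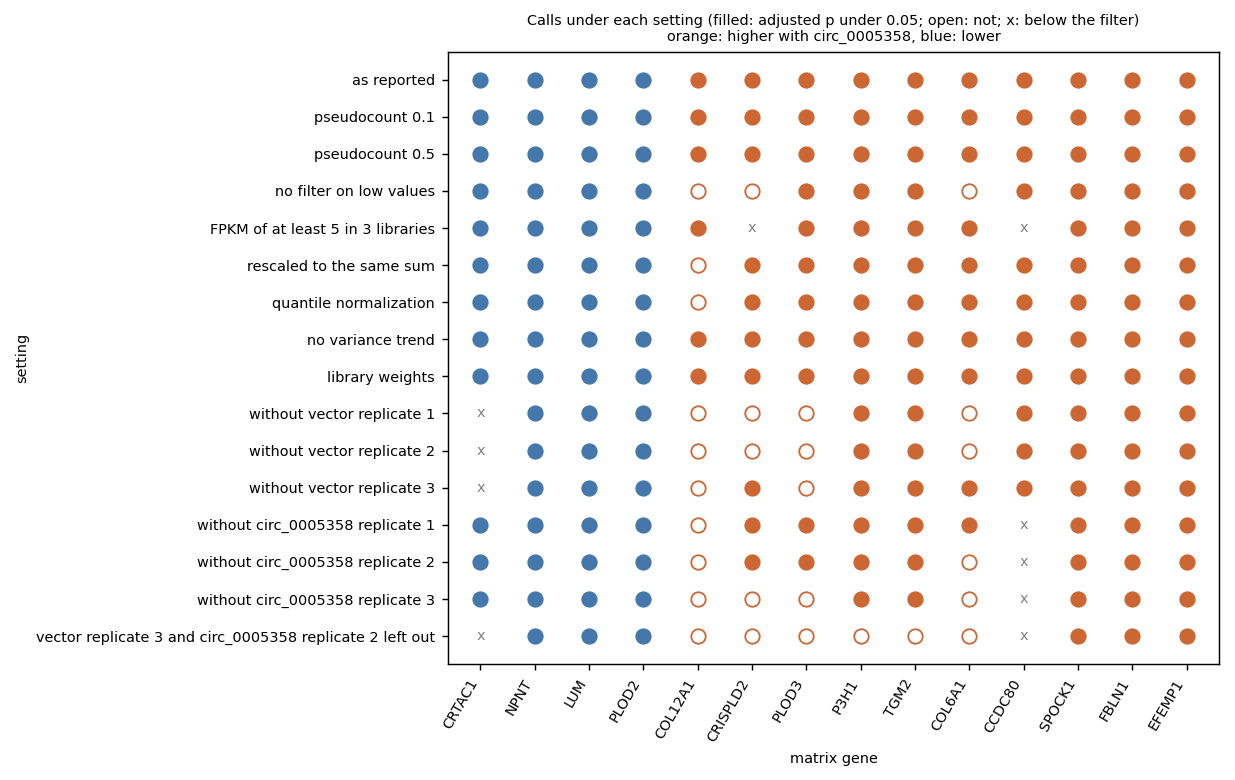
Calls of the 14 matrix genes that rose or fell, under each processing setting except the replicate block, which is not drawn. Filled circles mark adjusted p under 0.05, open circles a value above it and x a gene that no longer passed the filter. SPOCK1, FBLN1, EFEMP1, LUM, NPNT and PLOD2 are filled in every setting shown, and COL12A1 has the most open circles.

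With the 14 calls as reference, 9 members were called without vector replicate 1, 9 without vector replicate 2 and 9 without circ_0005358 replicate 3. CRTAC1 no longer reached the filter's 3 libraries without a vector library, and CCDC80 without a circ_0005358 library. With both vector replicate 3 and circ_0005358 replicate 2 removed 6 calls were left, SPOCK1, FBLN1, EFEMP1, LUM, NPNT and PLOD2. COL6A1, CRISPLD2 and COL12A1 were not called with no filter on low values (limma adjusted p = 0.0678, 0.0659 and 0.165).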

How the data were processed

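PolyA RNA of 3 vector and 3 circ_0005358 libraries of SiHa was compared. The authors deposited 1 table of FPKM values for 35544 loci. Trimmomatic, HISAT2 and build hg19 are named, per the submitters' processing notes, with no versions, and the program that computed FPKM is not given in the sources used here. Coordinates and promoter sequences are from RefSeq on GRCh38.p14, not from the build of the alignment. From the FPKM, limma 3.58.1 in R 4.3.3 was run without a block on log2(FPKM + 1) with its trend option, as a two-sided test over loci of at least 1 FPKM in at least 3 libraries, Benjamini-Hochberg adjusted, at a threshold of 0.05. Exact permutation tests used scipy 1.17.1. The code was tested on simulated data. FPKM holds no counts; relative depth came from what 1 fragment adds to FPKM at single-transcript loci (lengths from GENCODE 29). A row that joins several names was used for a member named in it. Each member is accounted for, called members in every library; of other lists up to 4 called genes of smallest p, and others named (ITGB1, ITGA8, COL4A6, COL6A3, COL3A1, KRT17, ACTA2) were chosen for their role or after their values were seen. A gene that this rule would name is not reported here. Members and lists were chosen with earlier results of these data known. Alternatives were other pseudocounts, filters, scalings and variance models, a replicate block and libraries left out.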

Additional observations from a re-analysis of the deposited data

How the results depend on the processing

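Of the 14 member calls, 8 kept direction and threshold under every alternative that gave them a value, and at pseudocounts of 0.1 and 0.5 all 14 did. The 14 changed members became 8 (4 higher) with a replicate block and 6 (3 higher) without vector replicate 3 and circ_0005358 replicate 2 together; with 1 library left out they were 9 to 13, with 5 to 9 higher. The 22 changed genes of the other lists became 11 with the block, 9 with both libraries out, and 14 to 18 with 1 left out. The 1171 changed loci, 660 higher and 511 lower, became 259 (129 and 130) with the block, 198 (94 and 104) with both libraries out and 591 (319 and 272) with no filter. With 1 library left out they were 485 to 761, with 274 to 392 higher and 181 to 376 lower. At FPKM of at least 5 there were 781, 486 higher and 295 lower. The causes were not tested, beyond fewer libraries or loci where these were left out. Of called loci 56.4% were higher, and 48.3% after rescaling to the same sum, which moved the median of all loci by -0.0305. Same-numbered libraries deviated together only weakly (correlations 0.0644, 0.0481 and 0.0781), and the labels name no pairs, so the numbers were not taken as pairs. Each library still correlated best with its own number, and differently numbered ones gave -0.0537 to -0.0106. Whether same-numbered libraries share an origin was not tested, and the counts without the block depend on that choice. The block ended the calls of COL12A1, CRISPLD2, PLOD3, P3H1, TGM2 and COL6A1. The log2 fold changes of 3 genes that did not pass turned sign with 1 library left out: COL4A5 ranged from -0.02234 (without vector replicate 1) to 0.1558, TNC from -0.07315 to 0.008851 (without circ_0005358 replicate 1) and LOX from -0.3369 (without circ_0005358 replicate 3) to 0.6458. No member stood on several rows, so summing rows gave no other value. The lowest levels are limited by depth, which FPKM gives only in relative terms.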
